A study of Homo sapiens with 8 samples.

Results

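The collagen genes are the 44 protein-coding genes whose symbol follows the pattern of a collagen alpha chain (COL, the type number, A, the chain number), out of 19957 protein-coding genes and 60558 genes in all. They were measured by RNA-seq in 2D human intestinal epithelial cells (hIECs) made from the established embryonic stem cell line H9, in 4 groups of 2 libraries each. Normal hIECs received neither agent, and normal hIECs with PM10 received particulate matter 10 (airborne particles) at 100 µg/ml for 7 days. Inflamed hIECs received the cytokines IFNγ and TNFα at 50 ng/ml each for 10 days, and inflamed hIECs with PM10 received the same cytokines with PM10 for the last 7 days. The labels give 10 days of treatment for every group, and the doses and the 7 days come from the study's methods. All groups share 1 cell line, and the labels do not say that the 2 libraries of a group came from separate cultures, so the p-values measure the spread between these libraries, which may be technical.

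Collagens are extracellular matrix proteins built from alpha chains that wind into a triple helix, either of identical chains or of different chains encoded by separate genes. Fibrillar collagens such as types I and III form the tension-bearing fibres of connective tissue, type IV forms the network of the basement membrane under epithelia, and FACITs are collagens with an interrupted helix that sit on the surface of fibrils. Type VI assembles beaded filaments around cells, type VIII forms hexagonal lattices, and transmembrane collagens are anchored in the plasma membrane with the helix outside the cell. In the intestine, interstitial collagens are made mainly by mesenchymal cells of the lamina propria.

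The label of the cells was set beside marker genes. Of 10 intestinal markers, 9 were listed at 0 in all 8 libraries, among them CDX2, VIL1, MUC2 and LYZ, and the stem cell marker LGR5 ranged from 2.01 to 8.28 FPKM (sequenced fragments relative to transcript length and to all mapped fragments). Of 12 epithelial markers, 5 were listed at 0 in every library and EPCAM did not exceed 0.622 FPKM, while the keratin genes KRT8 and KRT18 lay between 100.1 and 383 FPKM. The 10 mesenchymal markers, none of which was at 0 in every library, summed to between 1071 and 1397 FPKM in a library, and VIM alone to between 718 and 973. All 4 endothelial markers were listed at 0 throughout. In bulk RNA, fewer cells of a type and less RNA per cell cannot be told apart, which holds for every level below.

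No library held a value between 0 and its minimum of 0.164 to 0.228 FPKM, so a gene listed at 0 lay under that value, not necessarily without transcripts. Transcripts of mitochondrial DNA took 15.5% to 24.2% of the FPKM sum, the most in normal replicate 2 and 17.02% in normal replicate 1. These 2 libraries differed by a median of 0.121 on the log2 scale over the genes tested, against 0.0745 between the normal libraries with PM10. The normal replicates also differed in COL1A1, which touches every comparison with normal hIECs below.

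Differences were tested with limma on log2(FPKM + 1) over the 14206 genes that reached 1 FPKM in 2 or more libraries, with Benjamini-Hochberg adjustment over all of them and an adjusted p under 0.05 as the threshold. This scale understates the change of weakly expressed genes. A gene is called higher or lower below only where it passed. Of the 44 collagen genes, 35 met the FPKM minimum, all 11 fibrillar genes among them. The 9 that did not were COL10A1, COL17A1, COL4A3, COL4A4 and COL6A5, which every library listed at 0, and COL15A1, COL20A1, COL23A1 and COL28A1, which stayed under 1 FPKM. COL17A1 encodes the hemidesmosome collagen of stratified epithelia, COL10A1 that of hypertrophic cartilage, and COL4A3 and COL4A4 type IV chains of specialised basement membranes such as that of the glomerulus. Of the 35, COL11A2, COL21A1, COL24A1, COL2A1, COL4A6, COL6A6, COL9A1 and COL9A3 reached the minimum only through libraries without cytokines, and COL19A1 only through libraries with them, so a cytokine difference in these 9 genes was favoured by the filter.

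3 stretches of sequence in front of collagen genes are shown: those of 2 neighbouring pairs whose members were called in the same direction with cytokines, and that of COL13A1, which had the largest log2(FPKM + 1) fall with cytokines and PM10. COL4A1 and COL4A2, the chains of the common type IV collagen, are transcribed in opposite directions from start sites 126 bases apart on chromosome 13, and COL4A5 and COL4A6 from start sites 379 bases apart on chromosome X. Each stretch lies outside annotated exons, comes from the RefSeq promoter windows of GRCh38.p14 and is printed from the forward strand, 5′ to 3′. They are the 100 bases at chr13:110307158-110307257 between COL4A1 and COL4A2, the 250 bases at chrX:108439588-108439837 in front of COL4A5, and the 224 bases at chr10:69801656-69801879 in front of COL13A1, a transmembrane collagen. Capitals mark CCAAT and GGGCGG in the first, CCAAT on either strand in the second and TATAAA in the third.
COL4A1 to COL4A2 interval: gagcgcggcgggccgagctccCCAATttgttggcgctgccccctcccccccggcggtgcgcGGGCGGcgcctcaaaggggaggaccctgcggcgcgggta
COL4A5: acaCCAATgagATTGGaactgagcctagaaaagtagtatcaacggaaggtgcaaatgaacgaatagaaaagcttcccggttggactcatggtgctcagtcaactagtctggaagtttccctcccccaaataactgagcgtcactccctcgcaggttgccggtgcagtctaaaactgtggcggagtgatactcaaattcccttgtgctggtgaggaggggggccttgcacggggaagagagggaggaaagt
COL13A1: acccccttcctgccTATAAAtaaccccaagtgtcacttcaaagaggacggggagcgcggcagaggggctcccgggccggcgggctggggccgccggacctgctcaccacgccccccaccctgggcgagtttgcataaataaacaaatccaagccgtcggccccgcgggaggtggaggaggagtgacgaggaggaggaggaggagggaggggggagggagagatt
The share of G and C was 78% in the COL4A1 to COL4A2 interval, 51.2% in front of COL4A5 and 65.6% in front of COL13A1.

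Windows from 250 bases before to 50 after a start site were held for 32 of the 44 genes (44 windows), and each motif was searched on both strands, with overlaps between motifs allowed. CCAAT stood in 31.8% of the collagen windows and in 34.6% of all 35116 promoter windows, GGGCGG in 54.5% and 45%, and TATAAA in 18.2% and 11.5%. The letters TTCNNNGAA, the core of the gamma-interferon activation site, occurred in the windows of COL11A2 and COL7A1 alone, 4.55% of the collagen windows against 7.66% of all windows. The interferon-stimulated response element was matched in the window of COL17A1 alone, 2.27% against 3.57%. The NF-kB site was matched in the windows of COL15A1, COL25A1, COL4A4, COL6A2 and COL7A1, 11.4% against 11.3% of all windows. These are matches of letters, and the genes without a window, COL1A1, COL1A2 and COL3A1 among them, were not searched.

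Collagen transcripts were abundant in every group, and 3 fibrillar genes led them. Over the 8 libraries the 35 tested collagens had a median of 18.7 FPKM per gene, against 6.36 for all genes tested, and 8 collagens averaged over 100 FPKM. In normal hIECs COL3A1, which encodes the single chain of type III collagen, ranked at position 33 of 19944 nuclear protein-coding genes, COL1A2 at 62 and COL1A1 at 114. Between 37 and 38 collagens were above 0 in the normal libraries and 37 in those with PM10, against 35 in the inflamed libraries and 31 to 32 in the inflamed libraries with PM10. The number at 1 FPKM or more was 34 in each normal library, 33 with PM10, 27 to 28 with cytokines and 26 with both agents.

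**Figure D1:**
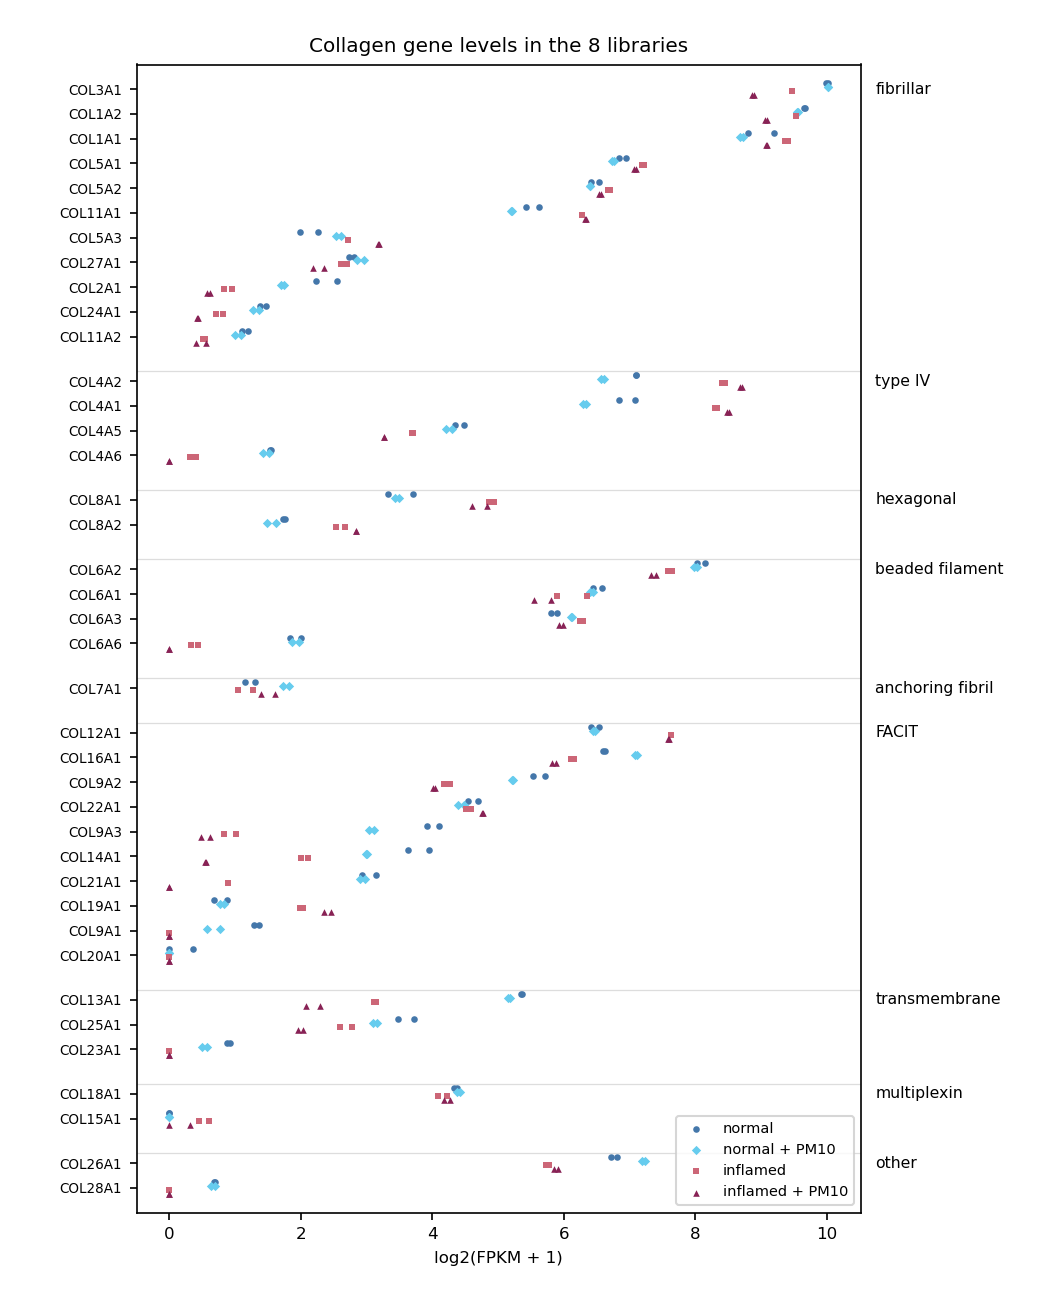
Level of each collagen gene above 0 in any library, as log2(FPKM + 1), with genes grouped by collagen class and 1 point per library (2 for each of the 4 groups). COL3A1, COL1A2 and COL1A1 lie farthest to the right, the inflamed points of COL4A1 and COL4A2 lie right of the normal ones, and those of COL13A1, COL14A1, COL21A1 and COL9A3 lie left of them.

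The summed collagen level differed less between groups than its make-up. Collagens took 1.11% and 1.16% of the non-mitochondrial protein-coding FPKM in normal hIECs, 1.07% and 1.09% with PM10, 1.16% and 1.18% in inflamed hIECs, and 1.019% and 1.004% when these also had PM10. Fibrillar genes made up 68.0% and 69.3% of collagen FPKM in the normal libraries and 68.4% and 68.2% with PM10, but 63.3% and 62.6% with cytokines, and 56.0% and 56.1% with cytokines and PM10. The type III share was 27.5% and 26.3% in normal hIECs and 29.2% and 28.7% with PM10, against 18.3% and 18.0% in inflamed hIECs and 14.1% in both inflamed libraries with PM10. The share of COL4A1 and COL4A2 together was 7.19% and 6.47% in normal hIECs and 4.87% and 4.82% with PM10. In inflamed hIECs it was 16.9% and 16.97%, and in inflamed hIECs with PM10 it was 23.1% and 23.2%, above type III and below type I. Type I kept between 32.3% and 36.2% in all 8 libraries. These shares are levels per transcript length and were not tested.

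**Figure D2:**
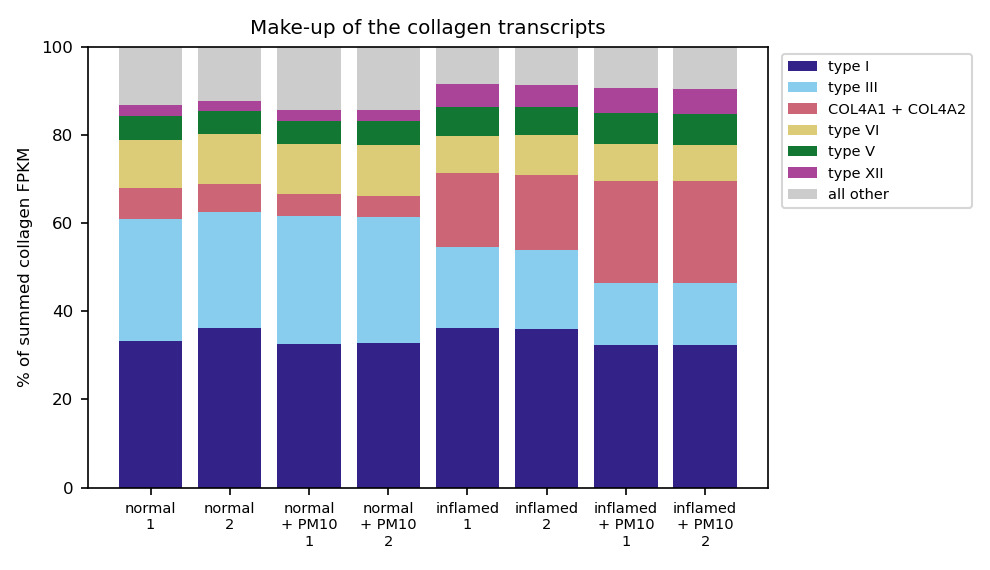
Share of the summed collagen FPKM (%) taken by types I, III, V, VI and XII, by COL4A1 and COL4A2 together and by all other collagens, 1 bar per library. The COL4A1 and COL4A2 part is 4.82% to 7.19% in the 4 libraries without cytokines and 16.9% to 23.2% in the 4 with them, where the type III part is smaller.

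The cytokine effect without PM10, inflamed against normal hIECs, was found in most of the collagens, in both directions. limma called 31 of the 35 tested genes, 12 higher and 19 lower in inflamed hIECs. Of all genes tested 56.2% were called, 25.9% higher and 30.3% lower. Without the 9 genes that the filter favoured, 22 of 26 were called, 11 in each direction. The median log2 fold change was -0.39 over the 35 genes and -0.03 over all genes tested. The comparison of inflamed hIECs with PM10 against normal hIECs with PM10, which uses the other 4 libraries, called 33 of 35, 12 higher and 21 lower, against 65.4% of all genes (25.8% higher and 39.6% lower), with medians of -0.64 and -0.11. Here 24 of the 26 genes that the filter did not favour were called, 11 higher and 13 lower. Of the 35 genes, 30 were called in both comparisons and 29 of these in the same direction, the exception being COL6A3. The change was larger with PM10 in 24 of the 35 genes. Across genes, which are not independent replicates, the log2 fold changes of these comparisons had a Pearson's r of 0.95. These shared counts and this r were not computed over all genes tested. Changes of at least 1 on the log2(FPKM + 1) scale were more frequent with PM10 over all 14206 genes too, at 1334 without and 1853 with it. For the collagens they numbered 15 and 19.

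**Figure D3:**
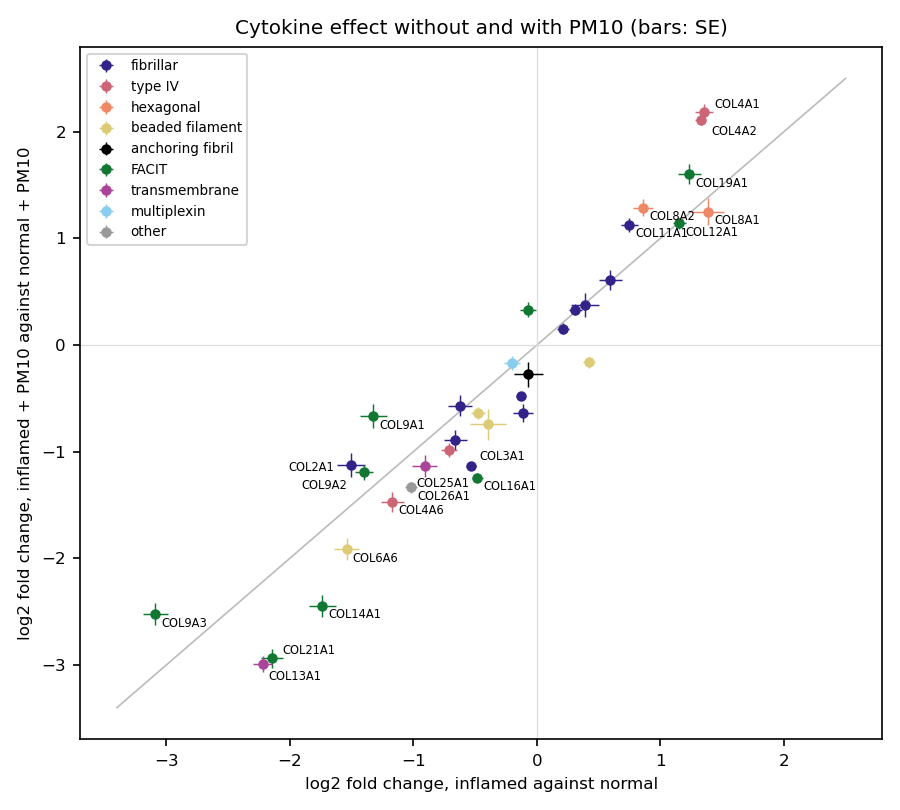
log2 fold change of each tested collagen with cytokines, without PM10 (x axis) and with PM10 (y axis), with standard errors as bars, colours for the class and a line where both are equal. 33 of the 35 genes have the same sign on both axes, with COL4A1 and COL4A2 at the top right and COL9A3, COL13A1 and COL21A1 at the bottom left.

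The basement membrane pair COL4A1 and COL4A2 was called higher with cytokines. With PM10 present these genes had the largest rises of the collagens on the log2(FPKM + 1) scale, whereas by the ratio of mean FPKM the weakly expressed COL19A1 had a larger one, at 5.78-fold. COL4A1 was at 134 and 114 FPKM in normal hIECs, 79.6 and 76.8 with PM10, 313 and 321 in inflamed hIECs, and 362 and 357 under both agents. COL4A2 was at 136 in both normal libraries, 93.4 and 96.5 with PM10, 336 and 348 in inflamed hIECs, and 416 and 408 when these also had PM10. The 4 groups did not overlap for either gene, normal hIECs with PM10 being lowest and inflamed hIECs with PM10 highest. COL4A1 was 2.56-fold higher in inflamed than in normal hIECs (log2 fold change 1.35 ± 0.075 SE, limma adjusted p = 6.52e-06), and COL4A2 2.52-fold (log2 SE 0.043, limma adjusted p = 4.65e-07). Where PM10 was present the cytokine difference was 4.60-fold for COL4A1 and 4.34-fold for COL4A2. The COL4A1 to COL4A2 ratio stayed between 0.796 and 0.986 in all 8 libraries, so the head-to-head neighbours of the interval printed above moved as a pair.

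COL4A5 and COL4A6 went the opposite way, while the remaining type IV neighbours, COL4A3 and COL4A4, were listed at 0. COL4A5 encodes a chain of the smooth muscle and glomerular basement membrane and was at 21.3 and 19.3 FPKM in normal hIECs, 17.4 and 18.7 with PM10, 12.1 and 11.9 with cytokines, and 8.63 and 8.64 with cytokines and PM10. COL4A6, its partner chain, was at 1.87 and 1.91 FPKM in normal hIECs, 1.87 and 1.67 with PM10 and 0.248 and 0.325 in inflamed hIECs, and was listed at 0 in both inflamed libraries with PM10. For both genes every library with cytokines lay below every library without. COL4A5 was 1.69-fold lower in inflamed than in normal hIECs (log2 fold change -0.71 ± 0.065 SE, limma adjusted p = 8.07e-05) and 2.09-fold lower with PM10 in both groups. COL4A6 was 6.61-fold lower without PM10 (-1.17 ± 0.092, limma adjusted p = 3.89e-05). It passed the filter through the libraries without cytokines alone, which favoured this call. Its inflamed values lay near the lowest values above 0 in these libraries, 0.228 and 0.211 FPKM. With 2 chains higher, 2 lower and 2 listed at 0, the 6 type IV genes had no common direction.

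Among the abundant fibrillar genes, type III was lower with cytokines, while type I did not move as a pair. COL3A1 was at 1034 and 1014 FPKM in normal hIECs, 1035 and 1032 with PM10, 706 and 709 in inflamed hIECs, and 475 and 466 under both agents. The cytokine libraries lay below all others, and those with PM10 below those without. COL3A1 was 1.45-fold lower in inflamed than in normal hIECs (log2 fold change -0.53 ± 0.040 SE, limma adjusted p = 3.27e-05) and 2.197-fold lower where both groups had PM10.

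COL1A2, the alpha 2 chain of type I collagen, was at 806 and 807 FPKM in normal hIECs, 746 and 753 with PM10, 735 and 739 in inflamed hIECs, and 543 and 532 when these also had PM10. Without PM10 the inflamed libraries lay 1.09-fold under the normal ones and the groups did not overlap, but this call was fragile. The log2 fold change was -0.13 ± 0.040 SE (limma adjusted p = 0.0253), and it turned to 0.22 (limma adjusted p = 0.00391) when the libraries were quantile normalised. With PM10 in both groups COL1A2 was 1.39-fold lower with cytokines (limma adjusted p = 3.62e-05), in every alternative tried.

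COL1A1, the alpha 1 chain, was at 445 and 587 FPKM in normal hIECs, 408 and 423 with PM10, 659.7 and 681 with cytokines, and 545 and 536 with cytokines and PM10. The normal libraries were far apart, with a mean of 516 ± 101 FPKM (SD, n = 2), and inflamed hIECs with PM10 lay between them. COL1A1 was 1.30-fold higher with cytokines both without PM10 (limma adjusted p = 0.0206) and with it (limma adjusted p = 0.0195), but the first call was lost without either inflamed library and the second without any 1 of the 4 libraries with PM10, with limma adjusted p up to 0.0881 and 0.0859. The ratio of COL1A1 to COL1A2 FPKM was 0.552 and 0.728 in normal hIECs, 0.547 and 0.561 with PM10, 0.898 and 0.921 in inflamed hIECs, and 1.005 and 1.007 under both agents.

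**Figure D4:**
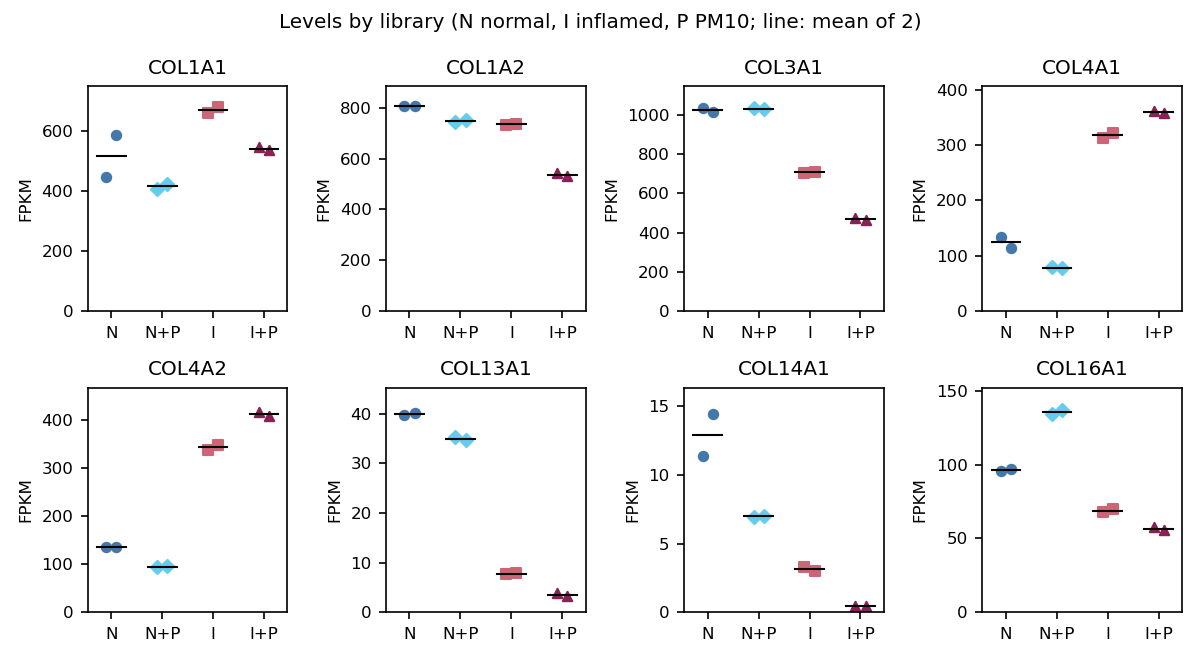
FPKM of 8 collagen genes in each library (points) with the mean of the 2 libraries of a group (lines), where N is normal, I inflamed and P PM10. COL4A1 and COL4A2 are highest in inflamed hIECs with PM10, COL3A1, COL13A1 and COL14A1 are lowest there, COL16A1 is highest in normal hIECs with PM10, and the 2 normal points of COL1A1 are far apart.

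The type V chains and COL11A1, minor fibrillar chains that join type I fibrils, were higher with cytokines. Other minor fibrillar chains were not. COL24A1 was called lower in both cytokine comparisons, by 2.41-fold and 4.37-fold, but passed the filter through the libraries without cytokines alone. COL27A1 was called lower only where PM10 was present, by 1.70-fold. COL5A1, a type V chain that sets fibril diameter, was at 114 and 122 FPKM in normal and 145 and 147 in inflamed hIECs (log2 fold change 0.31 ± 0.049 SE, limma adjusted p = 0.00123), and at 105 and 108 against 136 and 133 where PM10 was present. COL5A2, the second type V chain, was at 91.2 and 84.4 FPKM in normal hIECs, 83.2 and 83.5 with PM10, 101 and 102 in inflamed hIECs, and 93.7 and 92.1 when these also had PM10. It was called higher by 1.16-fold without PM10 and 1.11-fold with it, and the second call was lost when any 1 of the 4 libraries with PM10 was left out. COL5A3 was at 2.95 and 3.79 FPKM in normal hIECs, 4.81 and 5.07 with PM10, 5.57 and 5.58 in inflamed hIECs, and 8.09 and 8.02 when these also had PM10, and both cytokine calls were higher, by 1.65-fold and 1.63-fold. COL11A1, a type XI chain of cartilage fibrils that also occurs in type I fibrils, was at 48.1 and 41.9 FPKM in normal hIECs, 35.9 and 35.6 with PM10, 76.2 and 76.3 with cytokines, and 79.0 and 79.7 with cytokines and PM10. Its 4 groups did not overlap, and it was 1.69-fold higher with cytokines without PM10 and 2.22-fold with it (limma adjusted p = 6.33e-05 and 5.78e-06).

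The chains typical of cartilage were lower with cytokines, apart from COL11A1, but COL11A2, COL2A1, COL9A1 and COL9A3 passed the filter through the libraries without cytokines alone. COL11A2, the partner chain of COL11A1, lay between 1.00 and 1.29 FPKM without cytokines and between 0.326 and 0.464 with them. COL2A1, the chain of the main cartilage collagen, was at 4.83 and 3.71 FPKM in normal hIECs, 2.24 and 2.34 with PM10, 0.770 and 0.924 in inflamed hIECs, and 0.488 and 0.531 under both agents. COL9A3, a type IX chain on the surface of cartilage fibrils, was at 16.2 and 14.1 FPKM in normal hIECs, 7.61 and 7.18 with PM10, 0.771 and 1.017 in inflamed hIECs, and 0.395 and 0.526 when these also had PM10. In both genes the order of the groups was the same and no groups overlapped.

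Without PM10 COL9A3 was 16.9-fold lower with cytokines (log2 fold change -3.09 ± 0.10 SE, limma adjusted p = 4.96e-07), and COL2A1 was 5.04-fold lower (limma adjusted p = 3.29e-05). COL9A1 was at 1.43 and 1.58 FPKM in normal hIECs and 0.479 and 0.701 with PM10, and was listed at 0 in all 4 cytokine libraries. COL9A2 remained the most abundant type IX chain, at 51.6 and 45.1 FPKM in normal hIECs, 36.3 and 36.0 with PM10, 17.1 and 18.2 with cytokines, and 15.4 and 15.1 with cytokines and PM10, and was 2.73-fold lower without PM10. The 3 chains of a type IX molecule thus fell unequally, the COL9A2 to COL9A3 ratio being 3.19 and 3.20 in normal hIECs, 22.2 and 17.9 in inflamed hIECs, and 39.0 and 28.8 under both agents.

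SOX9, the transcription factor of chondrocytes and also of intestinal progenitors, was at 14.97 and 13.5 FPKM in normal hIECs, 14.1 and 13.6 with PM10, 3.88 and 3.95 in inflamed hIECs, and 3.66 and 3.699 when these also had PM10. ACAN, the cartilage proteoglycan aggrecan, was at 3.25 and 2.32 FPKM in normal hIECs and 0.281 and 0.337 with PM10, and was listed at 0 in all libraries with cytokines. MATN3, a further chondrocyte marker, went the opposite way. It was at 0.946 and 0.465 FPKM in normal hIECs and 0.673 and 0.674 with PM10. In inflamed hIECs it was at 2.77 and 3.08 FPKM, and at 3.71 and 3.66 under both agents. MATN3 reached 1 FPKM only through libraries with cytokines, and ACAN only through normal libraries without PM10. The summed level of the 5 chondrocyte markers was 17.02 to 19.97 FPKM in normal hIECs, 15.01 to 15.4 with PM10, 6.65 to 7.04 in inflamed hIECs, and 7.36 to 7.38 when these also had PM10. Its part in the falls of the cartilage collagens was not tested.

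The other FACIT genes split between strong falls and rises. COL14A1, which binds fibril surfaces and decorin, was at 11.4 and 14.4 FPKM in normal hIECs, 6.97 and 7.02 with PM10, 3.31 and 3.00 with cytokines, and 0.475 and 0.459 with cytokines and PM10. The groups followed one another without overlap. COL14A1 was 4.09-fold lower in inflamed than in normal hIECs (log2 fold change -1.74 ± 0.11 SE, limma adjusted p = 1.13e-05) and 14.99-fold lower where both groups had PM10 (limma adjusted p = 1.47e-06). COL21A1 was at 7.82 and 6.61 FPKM in normal hIECs, 6.83 and 6.49 with PM10, and 0.846 and 0.858 in inflamed hIECs, and was listed at 0 in both inflamed libraries with PM10. It was 8.46-fold lower without PM10 (limma adjusted p = 1.57e-06), but passed the filter through the libraries without cytokines alone, which favoured this call.

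COL12A1, which bridges type I fibrils, was at 91.9 and 84.1 FPKM in normal hIECs, 86.2 and 87.4 with PM10, 196 and 198 in inflamed hIECs, and 194 and 191 under both agents. All libraries with cytokines lay above all others, by 2.24-fold without PM10 (log2 fold change 1.15 ± 0.051 SE, limma adjusted p = 2.15e-06) and 2.22-fold with it, and PM10 gave no call in either. COL19A1, a rare FACIT of basement membrane zones, was at 0.829 and 0.608 FPKM in normal hIECs, 0.777 and 0.709 with PM10, 2.97 and 3.10 in inflamed hIECs, and 4.46 and 4.12 when these also had PM10. COL19A1 (chr6:69866556-70212468, forward strand) and COL9A1 (chr6:70216040-70303084, reverse strand) are neighbours whose 3′ ends face each other, and they moved in opposite directions with cytokines. The same held for COL3A1 (chr2:188974373-189012746, forward strand) and COL5A2 (chr2:189031898-189225312, reverse strand).

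COL13A1, a transmembrane collagen of cell adhesion sites and the neuromuscular junction, had the largest fall of the collagens on the log2(FPKM + 1) scale with cytokines and PM10. By the ratio of mean FPKM COL9A3 (16.1-fold) and COL14A1 were lower still, and COL21A1 was listed at 0. COL13A1 was at 39.7 and 40.0 FPKM in normal hIECs, 35.3 and 34.7 with PM10, 7.68 and 7.85 with cytokines, and 3.89 and 3.20 with cytokines and PM10. No group overlapped another, and each library with cytokines was far under each library without them. COL13A1 was 5.13-fold lower without PM10 (log2 fold change -2.22 ± 0.075 SE, limma adjusted p = 5.7e-07) and 9.86-fold lower with it (-2.99 ± 0.075, limma adjusted p = 1.02e-07). COL25A1, a transmembrane collagen of neurons and muscle, was at 10.1 and 12.1 FPKM in normal hIECs, 7.52 and 7.90 with PM10, 5.03 and 5.85 in inflamed hIECs, and 2.87 and 3.08 under both agents, and both cytokine calls were lower, by 2.04-fold and 2.59-fold. COL23A1, not tested, was at 0.896 and 0.830 FPKM in normal hIECs and 0.488 and 0.416 with PM10, and was listed at 0 with cytokines. With COL17A1 listed at 0 throughout, transmembrane collagens took 1.20% to 1.38% of the collagen FPKM without cytokines and 0.190% to 0.348% with them. Of the neuronal markers, 3 of 6 were listed at 0 and the other 3 were called lower in both cytokine comparisons. Their sum was 192 to 218 FPKM without and 111 to 127 with cytokines, and its part in the transmembrane falls was not tested.

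In type VI, the chains of the common heterotrimer did not move together. COL6A2 was at 260.1 and 282 FPKM in normal hIECs, 251 and 259 with PM10, 189.9 and 199 in inflamed hIECs, and 167 and 159.8 when these also had PM10, and was called lower with cytokines, by 1.39-fold and 1.56-fold. COL6A1 was at 85.9 and 94.98 FPKM in normal hIECs, 83.2 and 85.6 with PM10, 58.3 and 80.5 with cytokines, and 54.7 and 45.8 with cytokines and PM10. Its inflamed libraries were far apart, and it was called only with PM10, 1.68-fold lower (limma adjusted p = 0.00317, against 0.0533 without PM10), though the interaction was not called (0.36). COL6A3 was at 58.5 and 54.9 FPKM in normal hIECs, 67.8 and 68.9 with PM10, 77.5 and 75.0 in inflamed hIECs, and 60.0 and 62.1 under both agents. It was called 1.35-fold higher with cytokines without PM10 and 1.12-fold lower with PM10, the second call being lost when any 1 of the 4 libraries with PM10 was left out or the libraries were centred on their medians. COL6A6, a further type VI chain, was at 2.56 and 3.02 FPKM in normal hIECs, 2.91 and 2.63 with PM10, and 0.252 and 0.351 in inflamed hIECs, and was listed at 0 in inflamed hIECs with PM10.

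Type VIII, the lattice collagen of vessel walls and corneal endothelium, was higher with cytokines in both chains. COL8A1 was at 12.04 and 9.03 FPKM in normal hIECs, 9.83 and 10.3 with PM10, 29.7 and 28.1 in inflamed hIECs, and 23.2 and 27.5 when these also had PM10. COL8A2 was at 2.32 and 2.37 FPKM in normal hIECs, 1.79 and 2.08 with PM10, 4.79 and 5.36 with cytokines, and 6.15 and 6.17 with cytokines and PM10. All libraries with cytokines lay above all without, and the rises were 2.74-fold and 2.16-fold without PM10 (limma adjusted p = 8.52e-05 and 9.39e-05) and 2.52-fold and 3.18-fold with it. COL26A1, an EMI-domain protein named as a collagen, was at 111 and 104 FPKM in normal hIECs, 145 and 150.1 with PM10, 51.7 and 53.7 in inflamed hIECs, and 59.0 and 56.8 under both agents. It was 2.05-fold and 2.55-fold lower with cytokines (limma adjusted p = 4.35e-06 and 7.91e-07). COL28A1, a collagen with von Willebrand factor A domains, was at 0.617 and 0.607 FPKM in normal hIECs and 0.616 and 0.555 with PM10, and was listed at 0 with cytokines.

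Of the multiplexins, which carry endostatin domains, COL18A1 was at 19.1 and 19.8 FPKM in normal hIECs, 20.4 and 19.7 with PM10, 15.9 and 17.7 in inflamed hIECs, and 18.3 and 17.2 when these also had PM10. It was called once, lower with cytokines and no PM10 (limma adjusted p = 0.0348). That call was lost on leaving out any of 5 libraries, and 18.5% of its exonic bases are shared with SLC19A1, which libraries without strand information cannot assign. COL15A1, not tested, was listed at 0 in the 4 libraries without cytokines and was at 0.364 and 0.523 FPKM in inflamed hIECs, and at 0.244 FPKM in 1 of the 2 inflamed libraries with PM10.

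PM10 alone gave smaller and fewer differences. In normal hIECs it was followed by 14 calls among the 35 collagens, 5 higher and 9 lower, against 9.23% of all genes tested (5.51% higher and 3.72% lower), with a median of -0.10 for collagens and 0.06 for all genes. None reached a change of 1 on the log2(FPKM + 1) scale, though by mean FPKM COL9A1 was 2.55-fold and COL9A3 2.05-fold lower. COL9A1 reached 1 FPKM only in the normal libraries without PM10, so the filter favoured its lower call. In a fit of the normal groups alone no collagen was called by limma, with 15 of 35 at an unadjusted p under 0.05, so these calls rest on a spread estimated over all 4 groups. With the libraries centred on their medians the split was 3 higher and 10 lower. COL16A1, COL26A1, COL4A1, COL4A2 and COL9A3 kept their call when any 1 of the 8 libraries was left out.

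COL4A1 was 1.58-fold lower with PM10 in normal hIECs (log2 fold change -0.65 ± 0.075 SE, limma adjusted p = 0.0046), and COL4A2 1.43-fold lower (-0.51 ± 0.043, limma adjusted p = 0.0017). COL9A3 was 2.05-fold lower (-0.94 ± 0.10, limma adjusted p = 0.00369). COL9A2, COL2A1, COL9A1 and COL11A1 were called lower too, so that 5 of the 6 genes of types II, IX and XI were, against 3.72% of all genes tested. This set is not one of the collagen classes, and it counts COL9A1, whose call the filter favoured. COL11A1 kept its call in 2 of the 8 removals of a library, and COL9A2, COL2A1 and COL9A1 in 6 of 8 each. COL16A1, a FACIT near basement membranes and fibrils, was at 96.0 and 97.3 FPKM in normal hIECs, 134 and 137 with PM10, 67.9 and 69.8 in inflamed hIECs, and 57.7 and 55.7 when these also had PM10. The PM10 libraries were the highest of the normal hIECs and the lowest of the inflamed. In normal hIECs COL16A1 was 1.40-fold higher with PM10 (limma adjusted p = 0.00227) and COL26A1 1.37-fold higher (limma adjusted p = 0.0046). COL7A1, the anchoring fibril collagen, was at 1.23 and 1.47 FPKM in normal hIECs and 2.54 and 2.30 with PM10, and at 1.07, 1.42, 1.63 and 2.04 in the inflamed libraries without and with PM10. It was called 1.80-fold higher in normal hIECs (limma adjusted p = 0.0345), a call that 6 of the 8 removals of a library ended, and the interaction was not called.

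In inflamed hIECs PM10 was followed by 17 calls, 3 higher and 14 lower, against 15.2% of all genes tested (6.22% higher and 9.02% lower), with medians of -0.25 and -0.01. Of the 26 genes whose cytokine difference the filter did not favour, 12 were called, 2 higher and 10 lower. Among the 14, COL4A6 fell from 0.248 and 0.325 FPKM to values listed at 0, and COL6A6 from 0.252 and 0.351. The lowest values above 0 in the inflamed libraries were 0.228 and 0.211 FPKM. COL14A1 was 6.76-fold lower (log2 fold change -1.501 ± 0.11 SE, limma adjusted p = 0.000392), and COL13A1 was 2.19-fold lower (-0.95 ± 0.075, limma adjusted p = 0.000606). COL21A1 went from 0.846 and 0.858 FPKM to values listed at 0. COL3A1 was 1.505-fold lower (-0.59 ± 0.040, limma adjusted p = 0.000334), COL1A2 1.37-fold lower (-0.45 ± 0.040, limma adjusted p = 0.000897) and COL25A1 1.83-fold lower (limma adjusted p = 0.0057). These 6 kept their call when any 1 library was left out, and the other 11 did not. The 3 called higher were COL4A2, COL5A3 and COL19A1, by 1.20-fold, 1.45-fold and 1.41-fold, and COL4A1 was at 1.13-fold without a call (limma adjusted p = 0.142). When 1 library was left out, the number of calls moved, as it did over all genes tested. The collagen median then lay between -0.28 (without inflamed replicate 1) and -0.22 (without inflamed replicate 2).

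**Figure D5:**
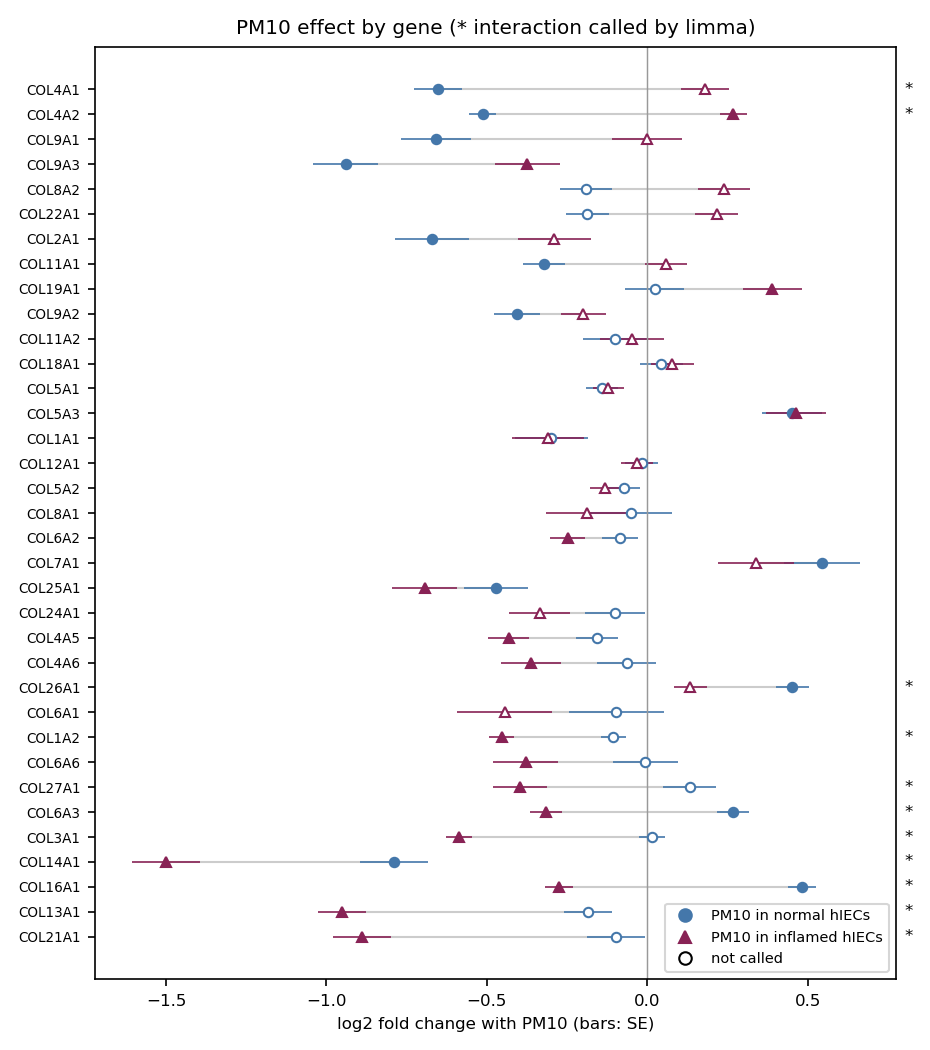
log2 fold change of each tested collagen with PM10 in normal hIECs (circles) and inflamed hIECs (triangles), with standard errors as bars, filled where limma called the gene, and a star where the interaction was called. COL4A1 and COL4A2 at the top move from below 0 to above 0, and COL16A1, COL6A3 and COL26A1 lie right of 0 in normal hIECs.

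The PM10 effect itself differed between normal and inflamed hIECs in 11 of the 35 collagens by limma's interaction term, 2 higher and 9 lower in inflamed hIECs, against 6.6% of all genes tested (2.11% higher and 4.48% lower). With libraries centred on their medians or quantile normalised, 13 were called, 6 higher and 7 lower, against 6.98% and 6.42% of all genes. The 2 were COL4A1 (interaction 0.83 ± 0.11 SE, limma adjusted p = 0.007) and COL4A2 (0.78 ± 0.061, limma adjusted p = 0.00166). Among the 9 were COL16A1 (-0.76 ± 0.062, limma adjusted p = 0.00171), COL3A1 (-0.60 ± 0.057, limma adjusted p = 0.00219) and COL6A3 (-0.58 ± 0.071, limma adjusted p = 0.00619). These 5 kept their call when any 1 library was left out, and without normal PM10 replicate 1 they were the only calls. In 7 genes PM10 was called in both normal and inflamed hIECs. COL14A1, COL25A1, COL5A3 and COL9A3 had the same direction in both, and COL16A1, COL4A2 and COL6A3 had opposite ones.

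Genes that modify, fold, export, trim, cross-link or bind collagen were followed as a list, of which 39 genes could be tested. With cytokines, 18 were called higher and 11 lower without PM10, and 21 higher and 9 lower with it. Of all genes tested 25.9% were called higher and 30.3% lower in the first comparison, and 25.8% and 39.6% in the second. The medians were 0.14 and 0.27, against -0.03 and -0.11 over all genes tested. All 5 lysyl oxidase genes, which cross-link collagen and elastin, were called higher in both comparisons. LOXL4 was at 36.7 and 32.3 FPKM in normal hIECs, 33.7 and 34.6 with PM10, 111 and 108 with cytokines, and 124 and 128 with cytokines and PM10, and LOXL1 was at 68.3, 71.2, 55.2 and 57.0 FPKM without cytokines and at 156, 164, 161 and 156 with them. PLOD2, the lysyl hydroxylase of telopeptides, rose from 22.2 and 19.9 FPKM in normal to 53.3 and 53.1 in inflamed hIECs. The 13 genes of proline and lysine hydroxylation went both ways, with 5 called higher and 4 lower without PM10, and 6 and 5 with it. The shares over all genes are those given above.

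Of 5 genes of propeptide removal, 4 were called lower with cytokines without PM10 (30.3% of all genes) and 2 with it (39.6%), and none higher. PCOLCE, the enhancer of the type I C-propeptidase, was at 241 and 245 FPKM in normal hIECs, 206 and 213 with PM10, 134 and 140.4 in inflamed hIECs, and 104 and 105 under both agents. ADAMTS2, the N-propeptidase, went from 4.39 and 4.11 to 1.07 and 1.30 FPKM. SERPINH1, the collagen chaperone HSP47, was lower with cytokines in both comparisons, by -0.30 and -0.51 on the log2 scale. Of the 9 chaperone and export genes tested, 3 were called higher and 2 lower in each. Of all genes, 25.9% and 30.3% were so called without PM10, and 25.8% and 39.6% with it. Of 6 collagen receptor genes tested, all were called higher with cytokines where PM10 was present (25.8% of all genes). Where it was not, 4 were called higher (25.9%) and DDR1 lower, with a log2 fold change of -0.33 (limma adjusted p = 0.00266). ITGA2 reached 1 FPKM only in the inflamed libraries with PM10, so the filter favoured its higher call with PM10 present. ITGA10, not tested, lay between 0.461 and 0.822 FPKM without cytokines and was listed at 0 in both inflamed libraries with PM10. ITGA11, the receptor chain for fibrillar collagen, was at 23.4 and 22.8 FPKM in normal hIECs, 27.8 and 28.7 with PM10, 55.5 and 55.9 in inflamed hIECs, and 78.6 and 76.6 when these also had PM10. With PM10 alone 9 of the 39 genes were called in normal hIECs, 2 higher and 7 lower (5.51% and 3.72% of all genes), and 12 in inflamed hIECs, 6 in each direction (6.22% higher and 9.02% lower). MRC2, an endocytic collagen receptor on the list, was not analysed here.

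Mesenchymal and myofibroblast markers also differed between groups. With cytokines and no PM10, 4 of the 10 mesenchymal markers were called higher and 4 lower, and 3 of the 4 myofibroblast markers tested were higher and none lower, against 25.9% higher and 30.3% lower of all genes tested. The myofibroblast markers, of which MYH11 was listed at 0 throughout, summed to 1573 to 1699 FPKM in normal hIECs, 1287 to 1312 with PM10, 2441 to 2478 in inflamed hIECs, and 2470 to 2493 when these also had PM10. The epithelial markers summed to 598 to 652 FPKM without cytokines and 287 to 352 with them. Nearly all of this sum was KRT8 and KRT18, which were called lower in both cytokine comparisons. KRT19, the only other epithelial marker tested, was called in neither. The part of the mesenchymal, myofibroblast and epithelial markers in the collagen differences was not tested.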

How the data were processed

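RNA-seq of 8 H9-derived hIEC libraries was analysed from gene-level values. Per the labels and the study's methods, the authors made poly-A libraries without strand information, trimmed reads with Cutadapt 3.7 and Sickle 1.33, used HISAT2 2.2.1 for alignment to GRCh38, and quantified genes with StringTie 2.2.0. The deposited values are FPKM, 1 per gene and library. The annotation release was not given in the sources used here. FPKM carries no read counts, so no count test was run, and sequencing depth is known only through the lowest value above 0.

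In R 4.3.3, limma 3.58.1 with its mean-variance trend was fitted to log2(FPKM + 1) of 14206 genes that reached 1 FPKM in 2 or more libraries. All 8 libraries entered with 4 group means, and p-values were two-sided and Benjamini-Hochberg adjusted within each of 5 comparisons. With 2 libraries a group, an exact permutation test of 1 gene could not go below 0.333, so none is given. Folds are ratios of mean FPKM, and none is given against a group at 0. Collagens named with every library's value were the 2 most abundant of each class, up to 4 called in each direction per comparison, COL13A1, COL14A1 and partner chains. COL4A5, COL4A6, COL6A6, COL11A1, COL11A2 and COL23A1 lay outside that rule and were chosen after their values were seen. The members, lists and tests were chosen with earlier results of these data known. Alternatives, 19 settings in all, covered pseudocount, filter, scaling, gene set, trend, groups fitted, replicate block and each library left out, and rescaling without mitochondrial genes was added after seeing the data. All 44 identifiers matched GENCODE release 44. Of these genes, 14 share exonic bases with another gene, 1 of them over 10%. Python 3.11.15, pandas 2.3.3 and matplotlib 3.10.9 made tables and plots.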

Additional observations from a re-analysis of the deposited data

Results flagged for a closer look

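In 11 collagens the PM10 effect in inflamed hIECs differed from that in normal hIECs by limma's interaction term on the log2 scale. It was higher in inflamed hIECs for COL4A1 (0.83) and COL4A2 (0.78). It was lower for COL21A1 (-0.79), COL13A1 (-0.77), COL16A1 (-0.76), COL14A1 (-0.71), COL3A1 (-0.60), COL6A3 (-0.58), COL27A1 (-0.53), COL1A2 (-0.35) and COL26A1 (-0.32). Only COL4A1, COL4A2, COL16A1, COL3A1 and COL6A3 kept the call when any 1 library was left out. With libraries centred on their medians or quantile normalised, 13 collagens were called, 6 higher and 7 lower. The interaction was called in 6.6% of all genes tested, and in 6.98% and 6.42% under these scalings. COL21A1 was listed at 0 in inflamed hIECs with PM10, so its value depends on the pseudocount. Outliers within a group could not be tested with 2 libraries a group.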

How the results depend on the processing

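Calls were followed for the collagens chosen by the naming rule, which left out COL4A5, COL4A6, COL6A6, COL11A1, COL11A2, COL24A1 and COL27A1. Recomputed under each alternative, 1465 of these calls held, 155 fell short of the threshold and 1 reversed, which was COL1A2 with cytokines and no PM10 (0.22 under quantile normalization). The cause was not tested. Of the numbers of collagens called, 79 stayed within 1.5 times the reported one and 15 fell below that, and of the medians 84 moved by less than the replicate spread and 10 by more. Between normal and normal PM10 libraries alone, PM10 had 0 collagens called by limma against 14, and 23 genes were called in all. In that fit 15 of 35 collagens were at an unadjusted limma p under 0.05, against 3169 of all 14206 genes tested. The median collagen change with cytokines was -0.13 without PM10 and -0.48 with it at a minimum of 2 FPKM, which leaves out weakly expressed genes, and -0.28 and -0.45 under quantile normalization. With a pseudocount of 0.1 it was -0.75 with PM10, and without a filter the interaction median was -0.058.

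With each library left out in turn, calls ranged from 5 (without normal PM10 replicate 1) to 16 for PM10 in normal hIECs, 28 to 30 and 30 to 34 for cytokines without and with PM10, 8 to 24 for PM10 in inflamed hIECs and 5 to 11 for the interaction. PM10 calls in normal hIECs were also 6 without normal PM10 replicate 2 and 9 without either inflamed PM10 library. PM10 calls in inflamed hIECs were 9 without inflamed replicate 2 or inflamed PM10 replicate 1 and 8 without inflamed PM10 replicate 2, and interaction calls 6 without any of these, inflamed replicate 1 or normal PM10 replicate 2 and 5 without normal PM10 replicate 1. The medians ranged from -0.13 to -0.09, from -0.50 (without inflamed replicate 2) to -0.17 (without inflamed replicate 1), from -0.67 to -0.58, from -0.28 to -0.22 and from -0.18 to -0.07 in the same order. A lone library was assumed to vary like the other groups. The number called over all genes tested also moved with the library left out, so these swings were not confined to collagens.

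Replicate numbers did not pair the libraries, since same-numbered libraries deviated with correlations of -0.0015 to 0.079. With the replicate number as a block the calls were 14, 31, 33, 14 and 8. Scaling moved the share of calls over all genes that were higher with PM10 in normal hIECs from 59.7% to 42.9% (median centring), 49.8% (quantile) and 75.4% (rescaled without mitochondrial genes). That share went from 32.0% to 45.7% and 46.6% for the interaction under the first 2 of these, from 40.8% to 50.8% for PM10 in inflamed hIECs under quantile normalization.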
